A study of Arabidopsis thaliana with 12 samples.

Results

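The shoots of both reciprocal hybrids of Arabidopsis thaliana accessions Col and C24 were compared with shoots of the C24 parent by RNA sequencing. The comparison takes in 9 of the 12 libraries of the series: 3 of C24, 3 of the hybrid labelled Col/C24 and 3 of the hybrid labelled C24/Col. The 3 libraries of Col, the other parent, entered no test here, and their levels are given beside those of the hybrids as a description. All plants were wild type and were sampled as whole shoots of 14-day-old seedlings grown in short days, with 8 h of light at 22 °C and 16 h of darkness at 18 °C. The labels do not say which parent of a hybrid was the mother, or how many plants went into a library. Polyadenylated RNA was sequenced, and the deposited value of each gene is in reads per kilobase per megaread (RPKM), a level that is scaled by gene length and by library size. A gene was tested where at least 3 of the 9 libraries reached 1 RPKM, which left 17708 genes. The series was made to study alternative splicing between the 2 accessions and how it is inherited, and the values used here are levels of whole genes.

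A first-generation hybrid carries a Col and a C24 copy of every nuclear gene. Where the parents differ in the level of a gene, the hybrid may lie between them, at the level of a parent or beyond both. C24 and Col differ in well-studied traits: C24 flowers late through the repressor FLC, and accessions of Arabidopsis differ widely in glucosinolates, the sulphur compounds that brassicas make against herbivores, and in the receptors with which they detect pathogens. Reads of all libraries were placed on the Col reference, and its part in low C24 values was not tested.

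A few properties of the libraries bear on the results. Ribosomal RNA genes held 0.231% to 0.441% of the summed RPKM in the C24 libraries, 1.217% to 4.485% in Col/C24 and 0.316% to 1.182% in C24/Col, and genes of the plastid genome moved with them (0.272% to 0.418%, 0.768% to 4.313% and 0.31% to 0.887%). Libraries with the same replicate number also deviated from their group means together, with correlations across genes of 0.62 to 0.83 in all 9 same-numbered pairs, against -0.65 to 0.17 in the 18 other pairs. The library numbered 1 was the highest of its group for 18, 17 and 17 of the 18 heat shock genes tested in C24, Col/C24 and C24/Col, and for 19, 17 and 15 of the 19 touch and wounding genes. Every Col/C24 library had a larger ribosomal RNA share than every C24 library, so a covariate for that share cannot fully separate it from the Col/C24 group. The test held the replicate number as a block. Of the 110 genes that were named by a fixed rule, all but the seed genes CRU3 and CRA1 were called. Without the block 57 of them lost the call, and calls lost in that way are given with their gene groups, by name or by count. The labels do not say whether libraries came from separate cultures, so p-values measure the spread between these libraries, which may be technical. In bulk shoots, fewer cells that express a gene and less RNA in each of them cannot be told apart.

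Of the 17708 genes, 3873 differed between the hybrids and C24 (21.9%, limma on log2(RPKM + 1), Benjamini-Hochberg adjusted p below 0.05). In the hybrids 1506 genes were higher (8.5%) and 2367 were lower (13.4%). Most of these differences were small: 91.7% were below 2-fold on the log2(RPKM + 1) scale, and the median size of a called difference was 0.34 log2 units. The large differences were mostly rises, but a comparison with 1 parent does not weigh rises and falls evenly. A hybrid level midway between the parents is at most 2-fold below C24, whereas a rise from a C24 level near 0 has no such bound. At least a 2-fold difference was found for 321 genes (1.81%), of which 247 were higher (1.39%) and 74 lower (0.418%), and at least a 4-fold difference for 77 higher genes and 1 lower gene. All 6 hybrid libraries lay above all 3 C24 libraries for 888 genes (5.01%) and below them for 1252 (7.07%). The excess of lower over higher calls did not hold under other scalings. Higher genes made up 38.9% of the calls here, 52.4% after median-of-ratios scaling, 51.4% when libraries were brought to a common total without ribosomal RNA and organelle genes, and 61.3% in a fit with a ribosomal RNA covariate. The median log2 difference over all genes was -0.04. Without the replicate block 1044 genes were called, all of them among the 3873, and 529 were higher and 515 lower.

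**Figure D1:**
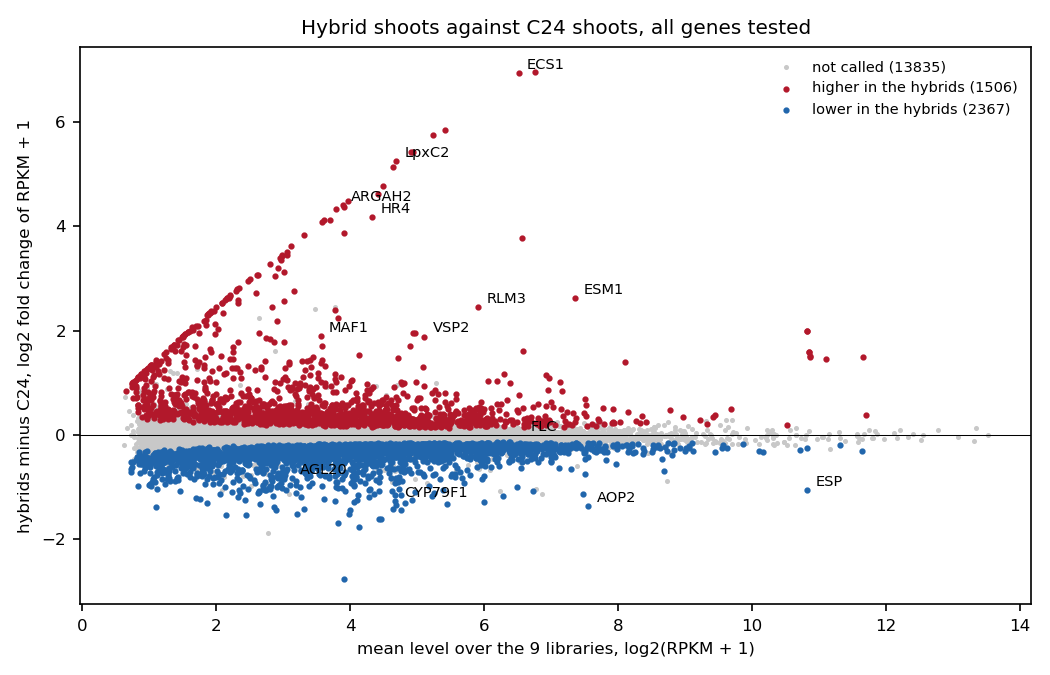
Each point is 1 of the 17708 genes tested, with its mean level over the 9 libraries as log2(RPKM + 1) on the x axis and the log2 difference of the hybrids from C24 on the y axis. Red points are the 1506 genes called higher and blue points the 2367 called lower, and rises reach further from 0 than falls.

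The largest rises were of genes that C24 shoots scarcely expressed. Of the 77 genes that were at least 4-fold higher in the hybrids, 66 had a C24 mean below 0.5 RPKM and 20 were listed at 0 in all 3 C24 libraries. RefSeq annotates 53 of the 77 as protein-coding, 11 as pseudogenes, 7 as ncRNA and 4 as lncRNA, and 2 had no entry. In the 66 genes with little C24 transcript the hybrid mean was 48.2% of the Col mean at the median, with a range of 31.7% to 106%, and 56 of them lay between 40% and 60%. These shares describe genes that were picked for their distance from C24 and carry no test. A value of exactly 0 in the files can also be a failed estimate, since CAB1, an abundant leaf gene, is listed at 0 in every library.

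On the log2(RPKM + 1) scale the first place among named genes belonged to ECS1 (AT1G31580), which encodes a cell wall protein. Its level was 0.15, 0.07 and 0.13 RPKM in the C24 libraries, 120, 152 and 110 in Col/C24, and 137, 166 and 128 in C24/Col. The hybrid libraries were all near the 3 Col libraries (140, 147 and 149 RPKM), so the hybrid mean was 93.3% of Col rather than near the middle. On the log2(RPKM + 1) scale the rise was 6.92 ± 0.09 (SE, adjusted p = 3.48e-10 in limma). LpxC2 (AT1G24880), which codes for an enzyme of lipid A synthesis, was listed at 0, 0.03 and 0 RPKM in C24, at 34.0, 39.3 and 39.5 in Col/C24 and at 33.3, 36.7 and 40.4 in C24/Col, with a Col mean of 82.8. LpxC3 (AT1G25054), its close copy, stood at 0.15, 0.16 and 0.26 RPKM in C24 and between 5.13 and 6.58 in the hybrids. Reads could be split between these copies, so the level of each is uncertain.

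LpxC2 and LpxC3 belong to a stretch of chromosome 1 in which 5 genes rose at least 4-fold: AT1G24880, AT1G24996, AT1G25054, AT1G25098 and AT1G25175. AT1G25098, a lncRNA, had the largest difference of all genes tested on the log2(RPKM + 1) scale. Its mean was 0.333 RPKM in C24 and 161 in the hybrids, with 354 in Col. Elsewhere, AT3G62530, picked here after its values were seen, rose from 9.11 to 136 RPKM on average, with 325 in Col. In all, 17 of the 77 genes had another of the 77 within 10 places along the chromosome, in 7 groups. No background was counted for such neighbours, so the number is a description. Another group held AT5G45428, which rose from 0.223 to 32.0 RPKM on average, next to the only gene that was at least 4-fold lower. That gene, AT5G45430, fell from 33.7 to 4.21 RPKM on average, with 7.24 in Col. The 2 genes are neighbours, and how the counting divided reads between them was not tested.

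Retroelement relics of the Sadhu family were among the rises. SADHU1-1 (AT2G10410) was at 0, 0 and 0.18 RPKM in C24 and at 33.7 to 41.6 RPKM in the hybrids. Sadhu4-2 (AT1G03420) was at 0.26 to 0.35 RPKM in C24 and at 9.25 to 11.8 RPKM in the hybrids. Their sequences resemble each other, so reads may be shared. ARGAH2 (AT4G08870), an arginase that breaks arginine down to ornithine and urea, was listed at 0, 0 and 0.04 RPKM in C24. It reached 21.4, 21.3 and 17.1 RPKM in Col/C24 and 24.7, 24.2 and 15.3 in C24/Col, with a Col mean of 37.9. The gene pair annotated AT14A (AT3G28300 and AT3G28290), whose products resemble integrins in part, had C24 levels of 0.1 to 0.32 RPKM and hybrid levels of 6.49 to 13.9 RPKM, again with reads that the copies may share. ARAB-1 (AT1G28670), a lipase gene, rose from 1.9, 0.68 and 1.11 RPKM in C24 to between 6.35 and 11.1 in the hybrids (log2 difference 2.19 ± 0.11 SE, adjusted p = 2.58e-06).

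**Figure D2:**
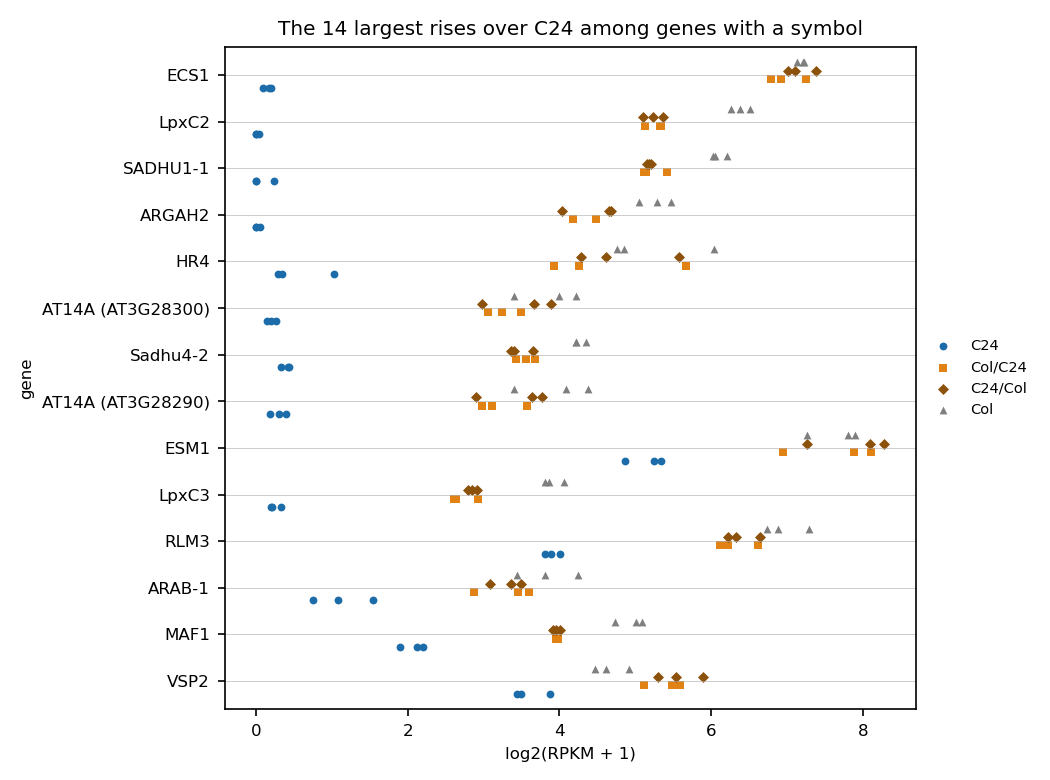
The x axis gives log2(RPKM + 1) in each library, with 3 points for each of C24, Col/C24, C24/Col and Col. Shown are the 14 largest rises among called genes with a symbol and a mean of at least 5 RPKM in the higher group. The genes were also chosen for no overlap between hybrid and C24 libraries. Col levels lie above, among or below those of the hybrids depending on the gene.

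Among 34 immune receptor genes tested, 9 were higher in the hybrids (background 8.5%), 0 were lower (background 13.4%) and 25 were not called, with a median log2 difference of 0.15 against -0.04 over all genes. Leaving out single libraries or replicate numbers gave 6 to 11 higher. Some members were called lower without C24 library 2 (3 genes), the libraries numbered 2 (2 genes), or C24 library 1 or C24/Col library 2 (1 gene each), and 5 were higher without the replicate block. HR4 (AT3G50480), a homolog of the mildew resistance gene RPW8, was at 1.04, 0.22 and 0.27 RPKM in C24. It was at 49.9, 14.2 and 18.1 RPKM in Col/C24 and at 46.6, 18.4 and 23.52 in C24/Col. The library numbered 1 was the highest of its group in all 3 groups, and even the lowest hybrid library was above every C24 library (log2 difference 4.17 ± 0.14 SE, adjusted p = 1.5e-07 in limma).

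RLM3 (AT4G16990), a gene of resistance to fungal pathogens, rose from 15.04, 13.0 and 13.9 RPKM in C24 to 97.2, 68.3 and 73.9 in Col/C24 and 98.7, 73.4 and 79.5 in C24/Col. The mean was 5.86-fold higher in the hybrids, with Col at 126 RPKM on average. RPM1 (AT3G07040), which guards the host protein RIN4 against bacterial effectors, had values from 1.93 to 5.52 RPKM in the hybrids and was at 0 throughout C24 (adjusted p = 0.00011). RPP8 (AT5G43470), a receptor of downy mildew, rose 1.67-fold, from 20.6 to 23.0 RPKM in C24 to 33.4 to 39.3 in the hybrids, beside 40.8 in Col. RPP5, LYK4, CERK1 and BIR1 also rose, by 0.23 to 0.71 log2 units. CERK1 and LYK4 act at the cell surface in the perception of chitin.

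Most of the glucosinolate genes tested fell. Aliphatic glucosinolates are built from methionine, whose side chain is lengthened, turned into the glucosinolate core and then modified; on damage the myrosinases split them, and specifier proteins set which products form. Of 38 genes tested, 25 were lower (background 13.4%) and 1 was higher (background 8.5%), with a median log2 difference of -0.46. The fall covered 8 of 8 genes of side-chain elongation, 9 of 13 of the core structure, 4 of 5 of side-chain modification, 2 of 5 regulators and 2 of 7 breakdown genes. Without the replicate block 17 genes were lower, with a ribosomal RNA covariate 20, and 20 to 25 with single libraries or replicate numbers left out.

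In the elongation of the side chain, BCAT4 (AT3G19710), the aminotransferase of its first step, was at 182, 170 and 137 RPKM in C24, 79.9, 75.1 and 59.1 in Col/C24 and 88.5, 82.6 and 77.2 in C24/Col. All hybrid libraries were lower than all C24 libraries, and the mean was 2.11-fold lower (log2 difference -1.07 ± 0.05 SE, adjusted p = 2.5e-06). MAM3 (AT5G23020) and MAM1 (AT5G23010), the methylthioalkylmalate synthases that add the carbon, fell by 0.89 and 0.56 log2 units. IPMI1 fell by 1.02, IPMI2 by 0.79, the transporter BAT5 by 0.72, BCAT3 by 0.24 and IMD1 by 0.20 log2 units.

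CYP79F1 (AT1G16410), the cytochrome P450 that starts the core of aliphatic glucosinolates, was at 41.3, 47.2 and 33.1 RPKM in C24, 11.6, 17.39 and 12.4 in Col/C24 and 16.0, 23.2 and 18.5 in C24/Col. The hybrids did not overlap C24, and the mean was 2.46-fold lower (adjusted p = 1.27e-05). Its sister CYP79F2 fell by 0.77 log2 units and CYP83A1, the next P450 of the aliphatic branch, by 0.50. CYP79B2, CYP79B3 and CYP83B1, which serve the indole branch, gave no call, with log2 differences of 0.05, -0.06 and 0.08. Among the regulators, MYB28 (AT5G61420) and MYB76 (AT5G07700), activators of aliphatic genes, fell by 0.53 and 0.95 log2 units, whereas MYB34 and MYB51, of the indole branch, and MYB29 gave no call. MYB28 was at 20.11, 30.7 and 26.6 RPKM in C24 and at 12.9 to 21.8 RPKM in the hybrids, so the groups overlapped in level while each same-numbered pair fell. Whether the branches differ was not tested.

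AOP2 (AT4G03060), the dioxygenase that converts methylsulfinyl to alkenyl glucosinolates, fell furthest of all glucosinolate genes. It was at 354, 337 and 262 RPKM in C24, 119, 127 and 110 in Col/C24 and 120, 145 and 111 in C24/Col, with 0.72 to 2.0 RPKM in Col. The mean was 2.6-fold lower in the hybrids (log2 difference -1.37 ± 0.07 SE, adjusted p = 2.07e-06). FMO GS-OX1, GS-OX2 and GS-OX3, which oxidise the side chain, fell by 1.05, 0.71 and 0.37 log2 units.

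Of the 7 glucosinolate breakdown genes tested, 1 was higher (background 8.5%), 2 were lower (background 13.4%) and 4 gave no call. ESP (AT1G54040), the epithiospecifier protein that diverts breakdown from isothiocyanates to nitriles, is among the most abundant transcripts of C24 shoots, at 2587, 2776 and 2911 RPKM. It was at 1263, 1443 and 1215 RPKM in Col/C24 and at 1329, 1401 and 1347 in C24/Col, and at 11.5 to 13.6 RPKM in Col. The hybrid mean was 2.07-fold lower than C24 (adjusted p = 9.53e-06). ESM1 (AT3G14210), the epithiospecifier modifier that favours isothiocyanates, went the other way. It was at 28.0, 39.6 and 37.0 RPKM in C24, 122, 275 and 236 in Col/C24 and 152, 311 and 271 in C24/Col. The library numbered 1 was the lowest of each hybrid and still more than all C24 libraries, and the hybrid mean was 6.54-fold higher, with Col at 204 ± 45.9 RPKM (SD, n = 3). The nitrile specifier NSP1 fell by 0.43 log2 units. The myrosinases TGG1 and TGG2 gave no call, with differences of -0.04 and 0.03.

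**Figure D3:**
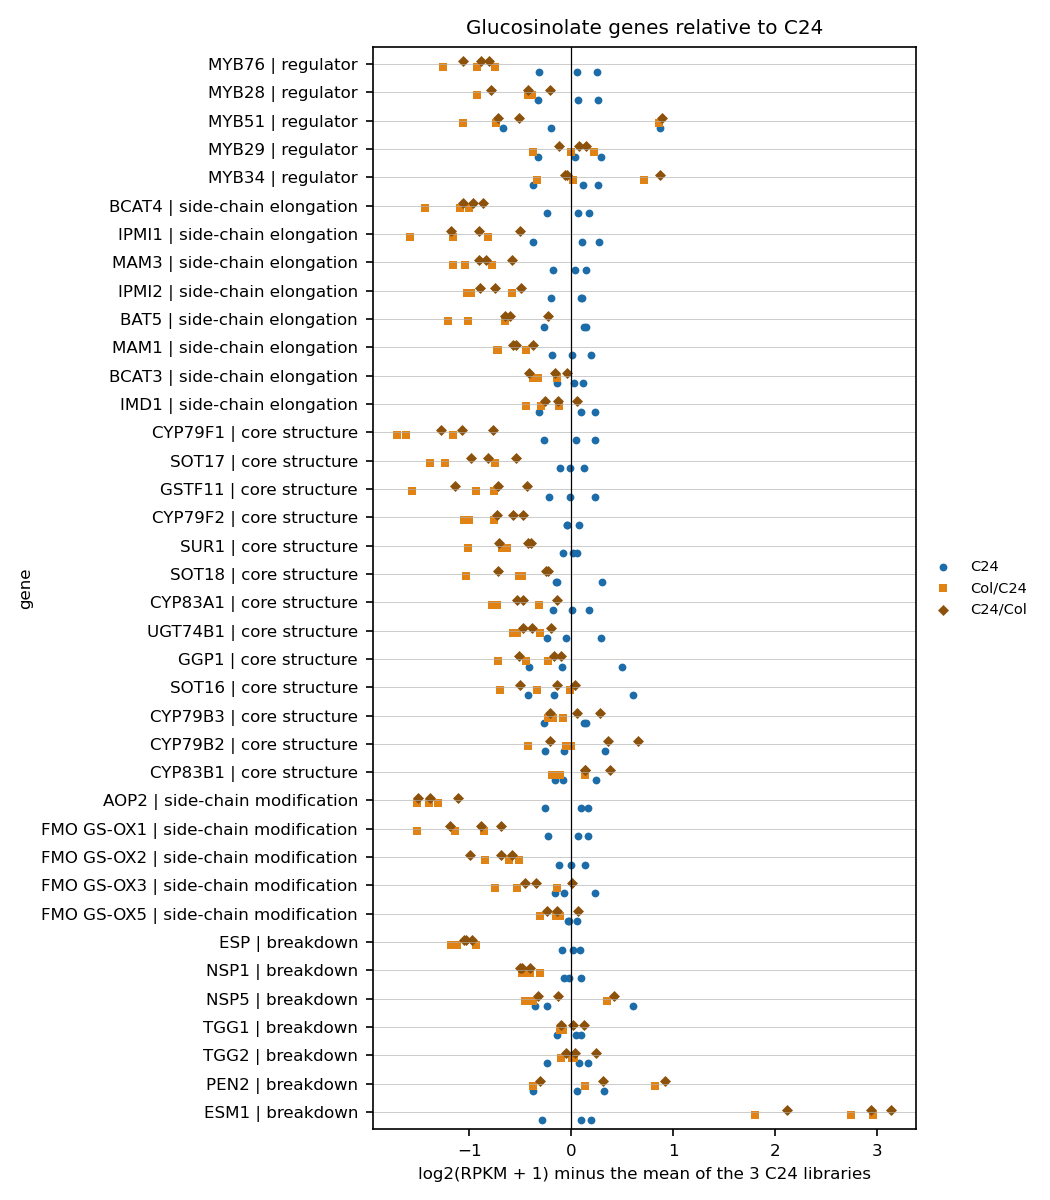
Points give log2(RPKM + 1) in each of the 9 libraries minus the mean of the 3 C24 libraries for the 38 glucosinolate genes tested, grouped by role. Genes of side-chain elongation lie mostly left of 0 in the hybrids, as do those of side-chain modification, while ESM1 lies far to the right.

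In the flowering pathway the FLC relatives MAF1, MAF2 and MAF5 rose, and FLC gave no call. FLC delays flowering by holding down SOC1 and FT, SVP acts with it, and MAF1 to MAF5 are close relatives of FLC. FLC (AT5G10140) was at 88.2, 90.4 and 105 RPKM in C24, 85.6, 97.0 and 97.0 in Col/C24 and 84.4, 96.9 and 103 in C24/Col, with 1.87 to 2.34 RPKM in Col. Hybrids and C24 overlapped fully, and the log2 difference was -0.01 (adjusted p = 0.937). FRI, the activator of FLC, gave no call either, with a difference of -0.01. Of 33 flowering genes tested 5 were higher and 3 were lower, beside background shares of 8.5% and 13.4%, and without the replicate block 3 were higher and 1 was lower.

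MAF1 (AT1G77080, also called FLM) rose the most, from 2.71, 3.37 and 3.59 RPKM in C24 to 14.5, 14.5 and 14.8 in Col/C24 and 15.01, 14.5 and 14.0 in C24/Col. The 6 hybrid libraries lay within 1 RPKM of each other, and Col was at 30.0 ± 3.87 RPKM (SD, n = 3). The log2 difference was 1.89 ± 0.07 (SE, adjusted p = 4.14e-07). MAF5 (AT5G65080) was at 1.69, 2.3 and 1.26 RPKM in C24, 4.57, 5.04 and 4.98 in Col/C24 and 5.42, 6.28 and 5.54 in C24/Col. Its hybrid libraries were above all 3 Col libraries too, which reached 3.07 to 4.47 RPKM. MAF2 rose by 0.33 log2 units, and MAF3 and MAF4 gave no call.

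AGL20 (AT2G45660), better known as SOC1, the integrator that FLC represses, fell. It was at 8.42, 11.8 and 14.0 RPKM in C24, 4.26, 6.01 and 6.69 in Col/C24 and 4.51, 7.03 and 7.11 in C24/Col. The hybrid mean was 1.92-fold lower than C24 although Col stood at 34.98 ± 4.73 RPKM (SD, n = 3), so the hybrids lay below both parents (log2 difference from C24 -0.83 ± 0.06 SE, adjusted p = 3.14e-05). FT, the mobile flowering signal, was listed at 0 in all 6 hybrid libraries and at 0.05 to 0.19 RPKM in C24, too low to be tested. SPL4 (AT1G53160), a target of miR156 that promotes the transition to flowering, rose from 3.88, 4.52 and 4.41 RPKM to 12.3, 11.7 and 12.1 in Col/C24 and 10.2, 11.7 and 10.6 in C24/Col (log2 difference 1.24 ± 0.06 SE, adjusted p = 3.11e-06). The repressors SNZ and SVP fell by 0.77 and 0.42 log2 units, and VRN2, a Polycomb repressor of FLC, rose by 0.27. SEP3 (AT1G24260), a floral organ gene, was low in all shoots and fell from 2.72, 3.44 and 3.54 RPKM in C24 to 1.2 to 2.1 RPKM in the hybrids (adjusted p = 0.000758).

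**Figure D4:**
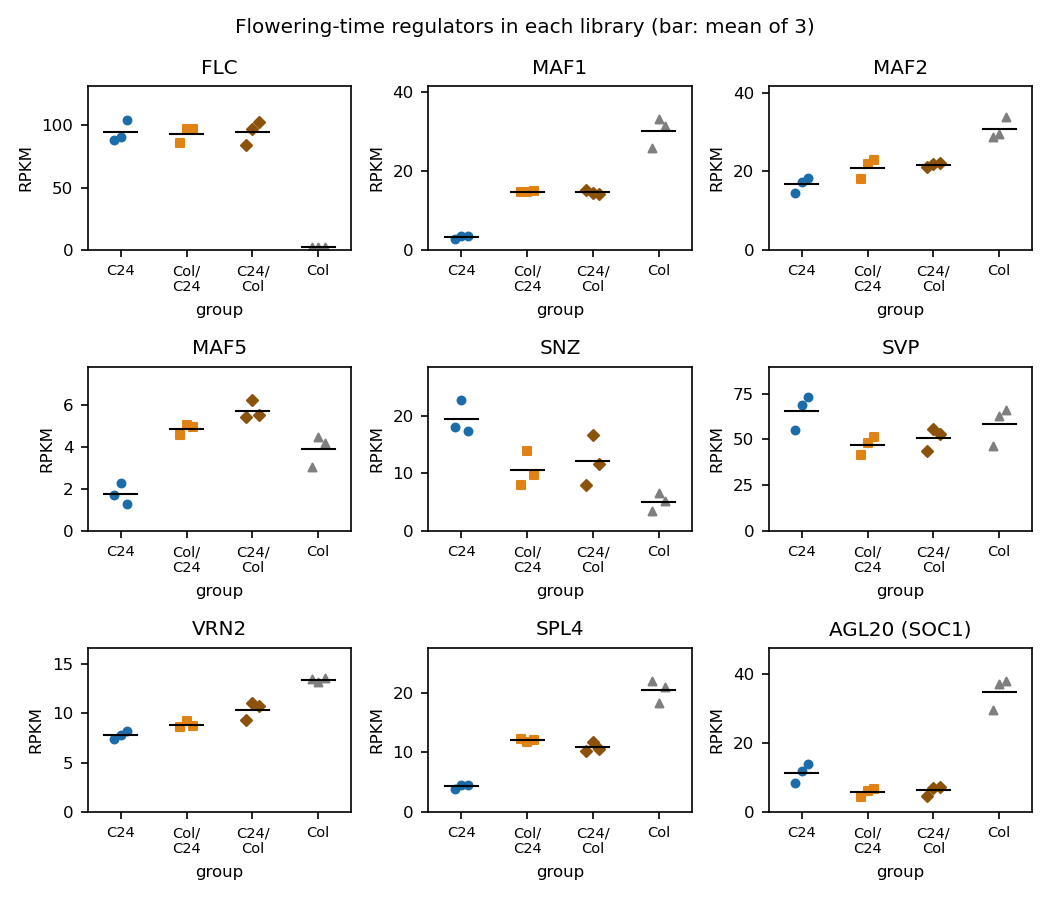
Each panel plots the RPKM of 1 flowering gene in the 3 libraries of C24, Col/C24, C24/Col and Col, with a bar at the mean. FLC is at the C24 level in the hybrids and near 0 in Col, MAF1 in the hybrids lies between the parents, and AGL20 (SOC1) in the hybrids lies below both.

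Flavonoid genes were called in both directions, with rises of the enzyme genes DFR, UGT78D1, TT4, LDOX and F3H. The pathway leads from chalcone synthase (TT4) through chalcone isomerase (TT5) and flavanone 3-hydroxylase (F3H) to flavonols and, by way of DFR and LDOX, to anthocyanins. Of 14 genes tested 7 rose (background 8.5%), 2 fell (background 13.4%) and 5 were not called. In the fit without the replicate block 3 rose, LDOX not among them, and 4 rose with the ribosomal RNA covariate or without replicate 3. DFR (AT5G42800) was at 3.36, 4.33 and 3.08 RPKM in C24, 11.7, 12.3 and 8.73 in Col/C24 and 11.3, 14.1 and 9.95 in C24/Col. All hybrid libraries were above all C24 libraries, and the mean was 3.15-fold higher (adjusted p = 1.65e-06), with Col at 11.5 RPKM. UGT78D1 (AT1G30530), a flavonol rhamnosyltransferase, rose 4.84-fold, from 1.51 to 2.01 RPKM in C24 to 7.32 to 10.2 in the hybrids. TT4 (AT5G13930) rose 1.87-fold, from 6.52, 9.89 and 7.93 RPKM in C24 to 13.4, 19.3 and 15.2 in Col/C24 and 14.5, 16.6 and 11.95 in C24/Col. LDOX, F3H and the regulators MYBL2 and TTG1 rose by 0.75, 0.45, 0.26 and 0.19 log2 units. TT5, which stands between TT4 and F3H, fell by 0.57, and OMT1, a methyltransferase, by 0.21.

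Of the 7 flavonoid genes that rose, 3 (DFR, TT4 and F3H) hold a G-box, the letters CACGTG that bZIP and bHLH factors can bind, in the 250 bases before the gene start that RefSeq annotates, and UGT78D1, LDOX, MYBL2 and TTG1 hold none there. A G-box was found in that window in 4 of the 14 flavonoid genes, the fourth being CHIL, which gave no call, and in 7.5% of 17577 genes tested. The match is a description of these letters and not a binding site. The windows are printed 5′ to 3′ on the strand of the gene, with the G-box in capitals (build TAIR10.1, RefSeq, Col reference; DFR minus strand at chr5:17166033-17166282, TT4 plus strand at chr5:4488226-4488475, F3H plus strand at chr3:19024942-19025191). The box begins 14, 233 and 249 bases before the gene start, in that order, so its place is not shared.
DFR: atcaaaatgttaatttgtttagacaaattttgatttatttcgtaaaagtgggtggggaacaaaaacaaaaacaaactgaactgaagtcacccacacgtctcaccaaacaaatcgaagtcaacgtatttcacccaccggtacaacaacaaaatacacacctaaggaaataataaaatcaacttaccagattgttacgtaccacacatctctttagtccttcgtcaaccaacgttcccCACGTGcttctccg
TT4: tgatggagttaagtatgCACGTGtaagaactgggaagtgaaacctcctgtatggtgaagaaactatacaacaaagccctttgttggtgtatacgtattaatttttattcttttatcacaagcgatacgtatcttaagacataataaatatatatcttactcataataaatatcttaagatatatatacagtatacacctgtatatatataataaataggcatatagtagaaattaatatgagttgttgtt
F3H: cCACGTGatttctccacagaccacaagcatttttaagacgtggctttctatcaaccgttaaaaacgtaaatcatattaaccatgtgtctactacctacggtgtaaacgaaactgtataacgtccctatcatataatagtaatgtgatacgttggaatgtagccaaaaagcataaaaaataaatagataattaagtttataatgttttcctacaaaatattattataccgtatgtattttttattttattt

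Of 30 jasmonate genes tested, 3 rose (background 8.5%), 8 fell (background 13.4%) and 19 gave no call. Without the replicate block 1 rose and 2 fell, and without the libraries numbered 2 or 3 the rises numbered 1. Falls numbered 3 without C24 library 1 and 4 to 5 without Col/C24 library 2 or 3 or any replicate number. LOX2 (AT3G45140), the chloroplast lipoxygenase that begins jasmonate synthesis, was at 273, 355 and 208 RPKM in C24, 87.0, 167 and 122 in Col/C24 and 139, 165 and 87.5 in C24/Col. No hybrid library reached the C24 libraries (log2 difference -1.13 ± 0.15 SE, adjusted p = 0.00119). AOS fell by 0.52 log2 units, and AOC1, AOC2 and AOC3 by 0.76, 0.43 and 0.57, so that 5 of the 12 synthesis genes tested were lower. LOX3, a further lipoxygenase of the list, rose by 0.28, and the other 6 synthesis genes gave no call. Of the 5 response genes tested 2 rose and 1 fell, and the roles were not tested against each other. VSP2 (AT5G24770), a storage protein with acid phosphatase activity that jasmonate induces, rose. It was at 9.9, 13.6 and 10.2 RPKM in C24, 43.7, 47.3 and 33.6 in Col/C24 and 45.6, 58.6 and 38.3 in C24/Col, a mean 3.95-fold higher (adjusted p = 3.78e-07). The 3 Col libraries were at 21.1 to 29.1 RPKM, so every hybrid library was above every library of either parent. VSP1 rose by 0.35 log2 units, and CORI3 (AT4G23600), a coronatine-induced aminotransferase, fell by 0.98. HPL1 (AT4G15440), the hydroperoxide lyase that draws on the same fatty acid pool for green leaf volatiles, fell from 12.1, 20.4 and 15.9 RPKM to between 3.89 and 7.2 (adjusted p = 1.13e-05), with 0.703 in Col.

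Of 27 salicylic acid genes tested 9 were lower (background 13.4%), 1 was higher (background 8.5%) and 17 were not called. None was lower without the replicate block, and 1 was lower with the ribosomal RNA covariate. ICS1 (AT1G74710), the isochorismate synthase of the pathway, fell by 0.42 log2 units, WRKY70 by 0.73, CBP60G by 0.86, NPR3 by 0.50 and PAD4 by 0.28. The count of lower genes was 3 to 5 without C24 library 1 or 3, Col/C24 library 2, C24/Col library 1 or 3, or the libraries numbered 1 or 3. Leaving out C24 library 3 gave 4 rises beside 3 falls, and leaving out all libraries numbered 3 gave 4 of each. The excess of falls was absent there, as it was without the replicate block and with the ribosomal RNA covariate. Without library 3 of either hybrid 2 were higher. CBP60G ranged from 9.9 to 51.9 RPKM within C24, with the library numbered 1 highest in all 3 groups. ACD6 (AT4G14400), an ankyrin membrane protein that promotes salicylic acid signalling, rose from 1.55, 1.25 and 1.47 RPKM in C24 to 3.15, 6.32 and 3.75 in Col/C24 and 4.39, 7.71 and 4.96 in C24/Col. Its call was kept under every alternative that gave a value.

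Of 18 heat shock genes tested 11 were lower in the hybrids (background 13.4%), 0 were higher (background 8.5%) and 7 were not called, with a median log2 difference of -0.56. None was called lower without the replicate block, 4 with the ribosomal RNA covariate, and 7 without either the libraries numbered 1 or those numbered 3. HSP17.4 (AT3G46230), a small chaperone of the cytosol, was at 64.2, 4.69 and 8.7 RPKM in C24, 35.6, 0.84 and 2.52 in Col/C24 and 13.2, 1.35 and 2.01 in C24/Col. In every replicate number C24 was the highest of the 3 groups, but C24 libraries 2 and 3 lay below the hybrid libraries numbered 1 (log2 difference -1.51 ± 0.22 SE, adjusted p = 0.00187). HSP90.1 fell by 1.34 and HSP70 by 1.29 log2 units. HSP17.6 and HSP17.6II, which are neighbours of like sequence, fell by 1.60 and 1.61.

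HSP17.4 is shown for its heat shock elements, the letters GAANNTTC to which heat shock factors bind. They stood in the 250 bases before the gene start of 5 of the 18 heat shock genes tested, 2 of them among the 11 called lower, and of 9.3% of 17577 genes. The window is 5′ to 3′ on the minus strand (chr3:16984868-16985117, TAIR10.1, RefSeq), with 2 elements in capitals.
HSP17.4: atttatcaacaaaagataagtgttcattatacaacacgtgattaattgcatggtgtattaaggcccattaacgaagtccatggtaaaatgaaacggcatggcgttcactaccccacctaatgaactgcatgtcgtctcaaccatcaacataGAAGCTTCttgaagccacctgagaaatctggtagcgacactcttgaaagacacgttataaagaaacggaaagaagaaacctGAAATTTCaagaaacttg

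Of 19 genes that respond to touch and wounding 10 were lower (background 13.4%), 1 was higher (background 8.5%) and 8 were not called, and 0 were lower either without the replicate block or with the ribosomal RNA covariate. The count of lower genes was 1 without C24 library 1 or 3, 4 without replicate 1 and 0 without replicate 3. It was 2 to 5 without any Col/C24 library or C24/Col library 1 or 3. The count rose to 11 without C24 library 2, 15 without C24/Col library 2 and 13 without replicate 2. ACS6 (AT4G11280), an ethylene synthesis enzyme that wounding and touch induce, was at 74.0, 27.5 and 34.8 RPKM in C24, 21.1, 6.97 and 7.61 in Col/C24 and 22.2, 26.4 and 14.2 in C24/Col. Its groups did not overlap, although C24/Col library 2 came within 2 RPKM of C24 library 2 (log2 difference -1.44 ± 0.24 SE, adjusted p = 0.0039). PBP1 (AT5G54490), a calcium sensor that binds the kinase PINOID, fell by 1.15 log2 units, and STZ, SZF1 and ERF5, transcriptional regulators of stress responses, by 1.12, 0.84 and 0.82. PBP1 is not one of the 19 genes. Its call was lost without the replicate block, with the ribosomal RNA covariate and without the hybrid libraries above 2% ribosomal RNA. The part that handling or harvest of the replicates had in these values was not tested.

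Among the remaining large falls were genes at or near 0 in Col. AGL38 (AT1G65300), a MADS-box gene also named PHERES2, was at 10.7, 15.5 and 19.3 RPKM in C24 and at 2.58 to 6.59 in the hybrids, with 0.137 in Col. HO3 (AT1G69720), a haem oxygenase gene, fell from 9.92, 7.87 and 7.84 RPKM to 2.3 to 4.4, with 0.133 in Col. GDPD6 (AT5G08030), a glycerophosphodiester phosphodiesterase, fell from 13.8, 7.71 and 4.89 RPKM to 1.41 to 3.13. In total 34 genes that were called lower had a Col mean below 0.5 RPKM and a C24 mean of at least 5 RPKM. Their hybrid mean was 45.4% of the C24 mean at the median, with a range of 25.1% to 71.3%. As these genes were picked for being called lower than C24, the shares are a description and carry no test. AK3, HMT3, GSTU26 and NAC047, which act in aspartate and methionine metabolism, glutathione transfer and transcription, fell by 1.06 to 1.15 log2 units and did not overlap C24.

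Genes of metal supply moved both ways, with 5 of 33 higher (background 8.5%) and 11 lower (background 13.4%). On the iron side FRO3 (AT1G23020), a mitochondrial ferric reductase, rose 2.15-fold, from 6.84, 6.44 and 8.39 RPKM in C24 to 16.4, 14.1 and 15.8 in Col/C24 and 17.8, 13.5 and 15.7 in C24/Col. The iron deficiency regulators BHLH038, BHLH100 and BHLH101 were at 0 to 0.45 RPKM in C24 and at 0.23 to 3.07 in the hybrids, with Col means of 6.27 to 9.03. They were called higher, and BHLH038 and BHLH100 lost the call in 8 and 9 of 22 alternatives. COPT2 (AT3G46900), a copper importer, fell from 17.1, 17.5 and 15.3 RPKM to 7.25 to 12.1, with 0.647 in Col (log2 difference -0.79 ± 0.09 SE, adjusted p = 0.000578). The copper superoxide dismutases CSD1 and CSD2 and their chaperone CCS fell by 0.36, 0.34 and 0.21 log2 units. Without the replicate block 2 metal genes were higher and 1 was lower, with the ribosomal RNA covariate 1 was lower, and 2 to 7 were lower without C24, Col/C24 or C24/Col library 3, C24 or C24/Col library 2, Col/C24 library 1, or the libraries numbered 2 or 3. Rises of metal genes numbered 2 or 3 without C24 library 1 or 2, either hybrid library 1, or the libraries numbered 1 or 2.

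In cold and drought responses 5 of 36 genes were higher (background 8.5%) and 7 lower (background 13.4%). Falls numbered 0 without the replicate block and 1 with the ribosomal RNA covariate, and there were 3 or 4 without C24 library 1 or the libraries numbered 1. Without C24 library 3 the counts were 8 higher and 3 lower, and without the libraries numbered 3 they were 9 higher and 1 lower. KIN2 (AT5G15970), a cold-induced hydrophilic protein, rose 2.27-fold, from 62.7, 63.3 and 69.8 RPKM in C24 to 116, 169 and 139 in Col/C24 and 114, 179 and 171 in C24/Col, with Col at 303 ± 76.6 RPKM (SD, n = 3). COR78 and LTI30 rose by 1.02 and 0.66 log2 units. RAB18 and RD29B, which abscisic acid induces, rose by 0.41 and 0.68, and their hybrid means of 59.4 and 2.77 RPKM were above those of both parents, at 44.1 and 32.7 RPKM for RAB18 and 1.32 and 0.81 for RD29B. The abscisic acid hydroxylase CYP707A3 fell by 1.19, and ZAT12 and CBF2 by 1.31 and 0.84 log2 units. ZAT12 lost its call in 12 of 23 alternatives, and COR78 and CYP707A3 in 1, the fit without the replicate block.

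Nutrient and carbon genes were called at shares near the background, with 5 higher and 6 lower of 43 for nutrient assimilation and 5 and 8 of 45 for starch and sugar (background 8.5% higher and 13.4% lower). Without the replicate block the counts were 2 and 3 for nutrient assimilation and 2 and 1 for starch and sugar. FUM2 (AT5G50950), the cytosolic fumarase that makes fumarate by day, rose 2.09-fold, from 17.8, 15.2 and 12.4 RPKM in C24 to 33.3, 34.8 and 22.7 in Col/C24 and 38.6, 35.2 and 25.3 in C24/Col. Its hybrid mean of 31.6 RPKM was next to the Col mean of 31.7 (adjusted p = 9.62e-06). APL3, a subunit of ADP-glucose pyrophosphorylase, rose by 0.60 log2 units, and GWD3 (AT4G24450), of the starch and sugar list, fell by 0.48. The nitrate transporter NRT1.5 and glutamate dehydrogenase GDH1 rose by 0.54 and 0.51, and the sulphate genes APR2 and SULTR2;1 fell by 0.76 and 0.33. GDH1 and APR2 lost their call without the block. Leaving out replicate 1 gave 3 higher and 3 lower nutrient genes, replicate 2 gave 3 lower and replicate 3 gave 2 higher. In the starch list 2 were lower without replicate 2, 5 without replicate 3 and 3 without C24 library 2, and 3 were higher without replicate 2 or 3.

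Of 63 photosynthesis genes 1 was higher (background 8.5%) and 8 were lower (background 13.4%). None of the falls was called with the ribosomal RNA covariate, and 2 were without the replicate block. LHCA3 (AT1G61520), an antenna protein of photosystem I, was the riser, from 2596, 2892 and 2821 RPKM in C24 to between 3290 and 4030 in the hybrids. LHCB2.1, PSAN and the aquaporin TIP2, among the most abundant of the lower genes, fell by 0.31, 0.20 and 0.24 log2 units, and all 3 lost their call without the block. Of 26 chlorophyll synthesis genes 9 were lower (background 13.4%) and 0 higher (background 8.5%), with a median log2 difference of -0.12. The falls numbered 0 without the replicate block, 2 with the covariate and 5 after median-of-ratios scaling. HEMA1 (AT1G58290), the glutamyl-tRNA reductase that controls entry into the pathway, fell from 380, 356 and 312 RPKM to between 243 and 301 (log2 difference -0.35 ± 0.04 SE, adjusted p = 0.000825). Falls of photosynthesis genes depended on single libraries: 20 were called without Col/C24 library 2, and 0 to 5 without any C24 library, Col/C24 library 1, C24/Col library 2 or 3, or the libraries numbered 1 or 3. For chlorophyll genes 2 to 5 falls were called without any C24 library, Col/C24 library 1, C24/Col library 2 or 3, or any replicate number. The ribosomal RNA share was higher in every Col/C24 library than in every C24 library, so the covariate cannot fully separate the share from that hybrid. The part of the share in these falls was not tested.

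Of 55 cell division genes 12 were lower (background 13.4%) and 0 higher (background 8.5%), with CDC20.2 (AT4G33260), an activator of the anaphase-promoting complex, lowest at a log2 difference of -0.51 (adjusted p = 0.000558). The cyclin CYCB2;3, the ribonucleotide reductase gene TSO2 and the DNA primase gene POLA3 fell by 0.38, 0.42 and 0.39, and these 3 lost their call without the replicate block. In this list 2 genes were lower without the replicate block, 1 with the ribosomal RNA covariate, and 3 to 7 without C24 library 1 or 3, library 3 of either hybrid, or the libraries numbered 1 or 3. Among 45 auxin and shade genes 6 were higher (background 8.5%) and 4 lower (background 13.4%). Leaving out C24 library 1 gave 3 higher and 0 lower, C24 library 3 gave 4 and 0, and Col/C24 library 3 gave 9 and 1. The other left-out libraries or replicate numbers gave 3 to 5 higher and 1 to 4 lower. The auxin synthesis genes YUC8 and TAA1 rose by 0.73 and 0.54 log2 units, and IAA5 and IAA29, auxin response repressors, by 0.79 and 0.38. Among 28 cell wall loosening genes 3 were higher (background 8.5%) and 5 lower (background 13.4%), led by XTH7, which rose by 0.41, and XTH33, which fell by 0.82. With libraries or replicate numbers left out 1 to 6 were higher, the most without library 3 of Col/C24, and 2 to 7 lower, the fewest without replicate 3. No gene of the auxin or cell wall lists was called without the replicate block.

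In the circadian clock 1 of 23 genes was higher (background 8.5%) and 5 were lower (background 13.4%), with 0 lower without the replicate block and 2 with the ribosomal RNA covariate. RVE1 (AT5G17300), a clock output regulator of auxin genes, rose from 0.93, 0.92 and 0.98 RPKM in C24 to between 1.71 and 2.9 (adjusted p = 0.0044). Its call was lost with the ribosomal RNA covariate and without the hybrid libraries above 2% ribosomal RNA. PRR3 fell by 0.71, RVE7 by 0.57 and CCA1 by 0.38 log2 units, and the libraries differed by replicate number too, with CCA1 at 17.64, 10.12 and 6.79 RPKM in C24. In DNA methylation and small RNA pathways 3 of 37 genes were higher and 5 lower, near the background shares of 8.5% and 13.4%. The counts were 1 and 1 without the replicate block, and 1 to 3 higher and 2 to 5 lower with libraries or replicate numbers left out. SGS3 (AT5G23570), needed for trans-acting small RNAs, fell from 27.5, 35.4 and 38.2 RPKM in C24 to 18.4, 22.6 and 22.3 in Col/C24 and 20.02, 21.6 and 21.9 in C24/Col, with 10.11 in Col (adjusted p = 0.000174). ROS1, the DNA glycosylase that removes methylated cytosine, rose by 0.41 and the methyltransferase CMT2 fell by 0.26 log2 units, a call that was lost without the block. Of 34 splicing factor genes 3 were higher (background 8.5%) and 2 lower (background 13.4%), each by less than 0.36 log2 units: GRP8, RSZ22 and SR45 rose, and CBP20 and ABH1 (CBP80), the cap-binding complex, fell. None of these 5 was called without the replicate block, and no member was called without C24 library 1 or 2, C24/Col library 3, or the libraries numbered 1 or 2.

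**Figure D5:**
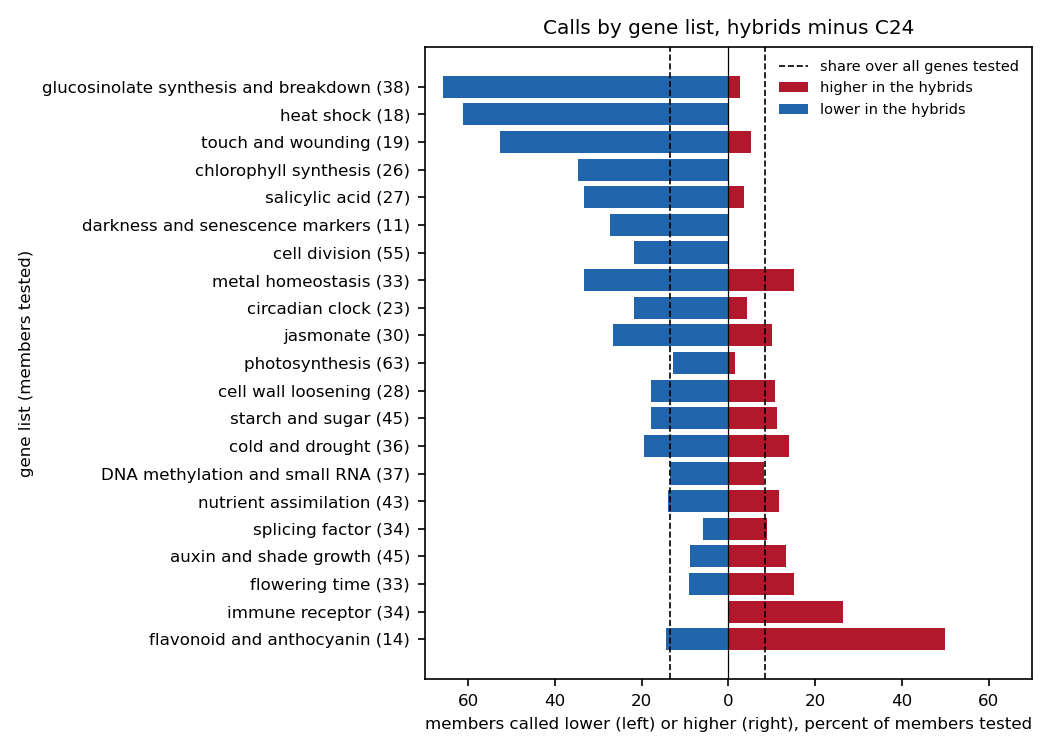
For each gene list with at least 10 members tested, bars give the percentage of members called lower (left, blue) and higher (right, red) in the hybrids, and dashed lines give the shares over all genes, 13.4% and 8.5%. The glucosinolate, heat shock and touch lists reach furthest left, and the flavonoid and immune receptor lists furthest right.

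Each hybrid was also set against C24 by itself. Col/C24 differed from C24 at 3533 genes (20%), 983 higher (5.55%) and 2550 lower (14.4%), and C24/Col at 2626 genes (14.8%), 1427 higher (8.06%) and 1199 lower (6.77%). The 2 comparisons share the C24 libraries. Called in both and in the same direction were 1922 genes, 1611 were called in Col/C24 alone and 704 in C24/Col alone. Between the hybrids themselves limma called 0 of 17708 genes (smallest adjusted p = 0.0642), with 2564 genes at an unadjusted p below 0.05, so a call in one hybrid alone is not a difference between them. The most abundant of the higher genes were ribosomal RNA genes, AT3G41768 and AT2G01010 of the nucleus and ATCG01180 of the plastid, and all 3 lost their call without the replicate block. AT3G41768 was at 774 to 1323 RPKM in C24, at 6539, 2392 and 11840 in Col/C24 and at 919, 1571 and 2642 in C24/Col, and was called in Col/C24 (adjusted p = 0.00281) but not in C24/Col (adjusted p = 0.341). With a ribosomal RNA covariate in the fit 355 genes were called in Col/C24 and 2488 in C24/Col.

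Markers of other organs were checked in the shoots. Of 13 root markers 3 reached 1 RPKM, with a sum of 121 to 127 RPKM in C24 and 103 to 117 in the hybrids, most of it PYK10, a glucosidase that seedling shoots also make. Of the 3 root markers tested 1 was lower (background 13.4%), which was PYK10. Its call was lost in 15 of 23 alternatives, among them the fit without the replicate block. RHD6, RSL4 and EXPA7, which define root hairs, were listed at 0 in all 9 libraries. COBL9 and EXPA18, of the same list, were at 0 in all hybrid libraries but not in all C24 libraries. Seed storage transcripts appeared in a few hybrid libraries. CRU3 (AT4G28520), the seed protein cruciferin C, was at 23.4 RPKM in Col/C24 library 1, 12.03 in C24/Col library 1 and 77.8 in C24/Col library 3. It was at or below 0.05 RPKM in the other 3 hybrid libraries and listed at 0 in C24. CRA1, another cruciferin, was high in the same 3 libraries, and neither was called (adjusted p = 0.152 and 0.129). Of the 5 seed markers tested none was called, and the part of seed-derived RNA in other genes was not tested. Of 11 markers of darkness and senescence 3 were lower (background 13.4%), NAC2 by 0.39, NYC1 by 0.24 and the cell wall enzyme gene XTH24 by 0.64 log2 units, and none was without the replicate block. SAG12, which defines late senescence, was at 0 in all 9 libraries.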

How the data were processed

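Polyadenylated RNA of Arabidopsis shoots was sequenced in 12 libraries, 3 each of C24, Col, Col/C24 and C24/Col, and the 9 libraries of C24 and both hybrids were compared. The authors deposited 1 table per library with an RPKM value per gene; that the unit is RPKM was read from the values. TopHat and the TAIR10 build are named per the submitters' processing notes; for the counting step, tool and annotation are not given in the sources read here. The tables hold no read counts and read depth was not estimated here, so no counting interval is given. Of 33559 distinct identifiers, 567 that were listed more than once were left out and 32992 genes kept, of which 32248 matched RefSeq (TAIR10.1) for symbols.

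Differences were fitted on log2(RPKM + 1) with limma 3.58.1 in R 4.3.3 (limma-trend), with 3 groups and the replicate number as a block, for genes with at least 1 RPKM in 3 libraries, and p-values were adjusted by Benjamini-Hochberg over 17708 genes. A log2 difference on this scale understates the change of low genes. The block was kept since same-numbered libraries deviated together in all 9 pairs (correlation 0.62 to 0.83). The fit was also run on values simulated from the same model, which cannot test whether that model suits these libraries. Named genes were the 14 largest rises and falls (called, no overlap, a symbol, a mean of at least 5 RPKM in the higher group). Up to 4 called members of each of 24 gene lists were added, and the 4 most abundant called genes in each direction. Where no member of a list was called, as for seed markers, its most abundant members were named. Others named were chosen after their values were seen. A member counted in the immune receptor list is not reported here by itself. The members, lists and motifs were chosen with earlier results of these data known. Alternatives covered the block, filter, pseudocount, scaling, ribosomal RNA and left-out libraries. Motifs and upstream windows were read with Python 3.11.15 from the RefSeq genome.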

Additional observations from a re-analysis of the deposited data

How the results depend on the processing

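Against 3873 genes that differed between the hybrids and C24, 1044 were called without the replicate block, 1247 with a ribosomal RNA covariate (1163 of them among the 3873), 1448 without the hybrid libraries above 2% ribosomal RNA (1404 of them among the 3873) and 321 at a 2-fold minimum; leaving out single libraries or replicate numbers gave 2003 to 3305, with 2403 without C24 library 1, 2420 without C24 library 3, 2003 without replicate 1 and 2035 without replicate 2 or replicate 3. In Col/C24 these alternatives gave 784, 355, 407 and 380 genes against 3533, and 1370 to 3292 with libraries left out. In C24/Col, against 2626 genes, 649 were called without the block, 2488 with the ribosomal RNA covariate and 287 at a 2-fold minimum. With libraries left out 1069 to 2504 were called. The difference between the hybrids was called at 0 to 5 genes with libraries left out, 3 of them without C24 library 2, 1 without Col/C24 library 2, 4 without C24/Col library 3 and 5 without replicate 2. Other filters, the pseudocount of 0.1 and other scalings gave 3034 to 4015 for both hybrids together. Fewer libraries also mean fewer degrees of freedom; otherwise the cause of these changes was not tested. Of the 110 named genes 47 stayed on the same side of the threshold in every alternative that gave a value. CRU3, which was never called, is counted among them. Of 2512 single values 2120 stayed on the same side of the threshold, 391 lost the call, 1 gained it and 0 reversed. RPKM without read counts limits what can be said of genes near 0.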
